A study of Mus musculus with 8 samples.

Results

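The genes of mitochondrial protein import (symbols starting with Timm and Tomm) and of the mitochondrial carrier family (Slc25a) were followed in perigonadal white adipose tissue of male mice. A gene was taken when its symbol in the probe annotation had one of these prefixes and at least 1 of its probes read above the background limit on 3 or more of the 8 arrays. This limit is a fixed intensity that between 51.7% and 51.8% of all 25697 probes exceeded on each array, whose lowest probe read 87.0. The carnitine carrier gene Slc25a20 was left out by the rule. Of 61 genes with these prefixes on the array, 49 met it, 20 of them import genes and 29 carrier genes, among 9686 genes tested. RNA had been read on Illumina MouseRef-8 v2.0 beadchips, 1 mouse per array. FKO mice (labelled KO, adipocyte OGT knockout, 3 arrays) carried Adiponectin-Cre and a floxed Ogt allele, and their littermates, Con (labelled WT, 5 arrays), carried the floxed allele without Cre. All were B6 males, labelled as 15 weeks old and given a high-fat diet for 3 days, although the methods start this diet at a younger age and give the group sizes the other way round. A figure legend of the study gives the group sizes of the labels. The labels were used. The adiponectin promoter drives Cre in adipocytes, so that the other cells of the fat pad keep Ogt. In RNA of a whole tissue, fewer cells of a type and less RNA per cell cannot be told apart.

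Nearly all proteins of mitochondria are made in the cytosol and enter through the translocase of the outer membrane (TOM). From there the TIM23 complex takes up those with a presequence, while carriers of the inner membrane, which have none, are escorted across the intermembrane space by small TIM chaperones and inserted by the TIM22 complex. The SLC25 carriers exchange nucleotides, phosphate, citrate, amino acids, cofactors and iron between matrix and cytosol. In white fat, citrate that leaves by this route supplies acetyl-CoA for fatty acid synthesis.

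Ogt, the targeted gene, did not separate the labels. With its brightest probe it read 296, 177 and 260 on the arrays labelled FKO 1 to 3, against 188, 264, 199, 232 and 267 on those labelled Con 1 to 5 (log2 fold change 0.076 ± 0.23 as the standard error, which follows every ± below; p = 0.768 by a two-sided exact permutation test). All 3 probes of Ogt were lowest on FKO 2, Con 1 and Con 3, and its dimmer probes gave log2 fold changes of 0.0055 and −0.037. Where its 3 probes lie relative to the deleted exons was not settled. The directions below are thus between arrays as labelled, with no check of the labels by Ogt. Markers of adipocytes were present on all arrays (9 of 10 on the array, all 9 tested), with a summed intensity of 37314 to 44774 on FKO arrays and of 43361 to 49944 on Con arrays. The summed intensity of 11 tested epididymis markers was 12022, 1136 and 20310 on FKO 1 to 3, so that FKO 1 and FKO 3 stood apart. It was 2445 on Con 2, which also carried these transcripts at a lower level, and 1176 to 1306 on the other Con arrays. Ucp1, the uncoupling protein of brown fat, was above the limit on 2 arrays only and was not tested. Of the 8 listed markers of brown and beige fat, 5 were tested. Cidea, Cox7a1, Cpt1b and Ppargc1a were above the limit on all 8 arrays and Elovl3 on 3. Their summed intensity was 698 to 901 on FKO arrays and 631 to 1021 on Con arrays. The authors' quantile normalization gave each array the same lowest and highest value.

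None of the 49 genes was called between the labels. With limma, 0 were higher and 0 lower at an adjusted p under 0.05 (smallest adjusted p = 1.00), where 0% of all genes tested were called. At an unadjusted p under 0.05, 0 were higher and 2 lower, Slc25a15 and Slc25a32, against a background of 4.69% of genes in either direction, 2.54% higher and 2.15% lower. The methods' t-test, run here on the background-corrected log2 values, called 0 of the 49, and 0.0103% of all genes. With the same cut-offs on its own quantile-normalized data, the study reported changed genes in both directions. The input differs, so the 0.0103% does not repeat the study's count. The labelled groups did not overlap for 1 gene, Slc25a32, where this held for 2.65% of all genes (1.19% higher and 1.47% lower). Of the 49 log2 fold changes (FKO over Con) 18 lay above 0 and 31 below it, and their median was −0.040. Over all genes 56.6% lay below 0, and the median was −0.016. The 20 import genes (9 above 0, 11 below) had a median of −0.022 and the 29 carrier genes (9 above 0, 20 below) one of −0.061. Of the marker lists, 8 of 9 adipocyte markers also lay below 0 (median −0.12), as did 8 of 10 progenitor and fibroblast markers (median −0.12). So did 6 of 8 mesothelial (−0.20), 6 of 8 macrophage (−0.072) and 7 of 10 endothelial markers (−0.020). Above 0 lay 3 of 3 erythroid markers (median 0.29, 1 of them with groups that did not overlap) and 10 of 11 epididymis markers (median 1.53). Their part in the medians of the import and carrier genes was not tested. These counts and medians describe the genes and were not tested as a list. The 95% intervals of 42 of the 49 lay within a 1.5-fold change in either direction and those of 48 within a 2-fold change. For 17 of the 49, every array lay below 2 times the background limit, where folds and their intervals are compressed. Their intervals therefore do not bound the change in RNA. The plot of fold changes by role shows how wide each interval was.

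**Figure D1:**
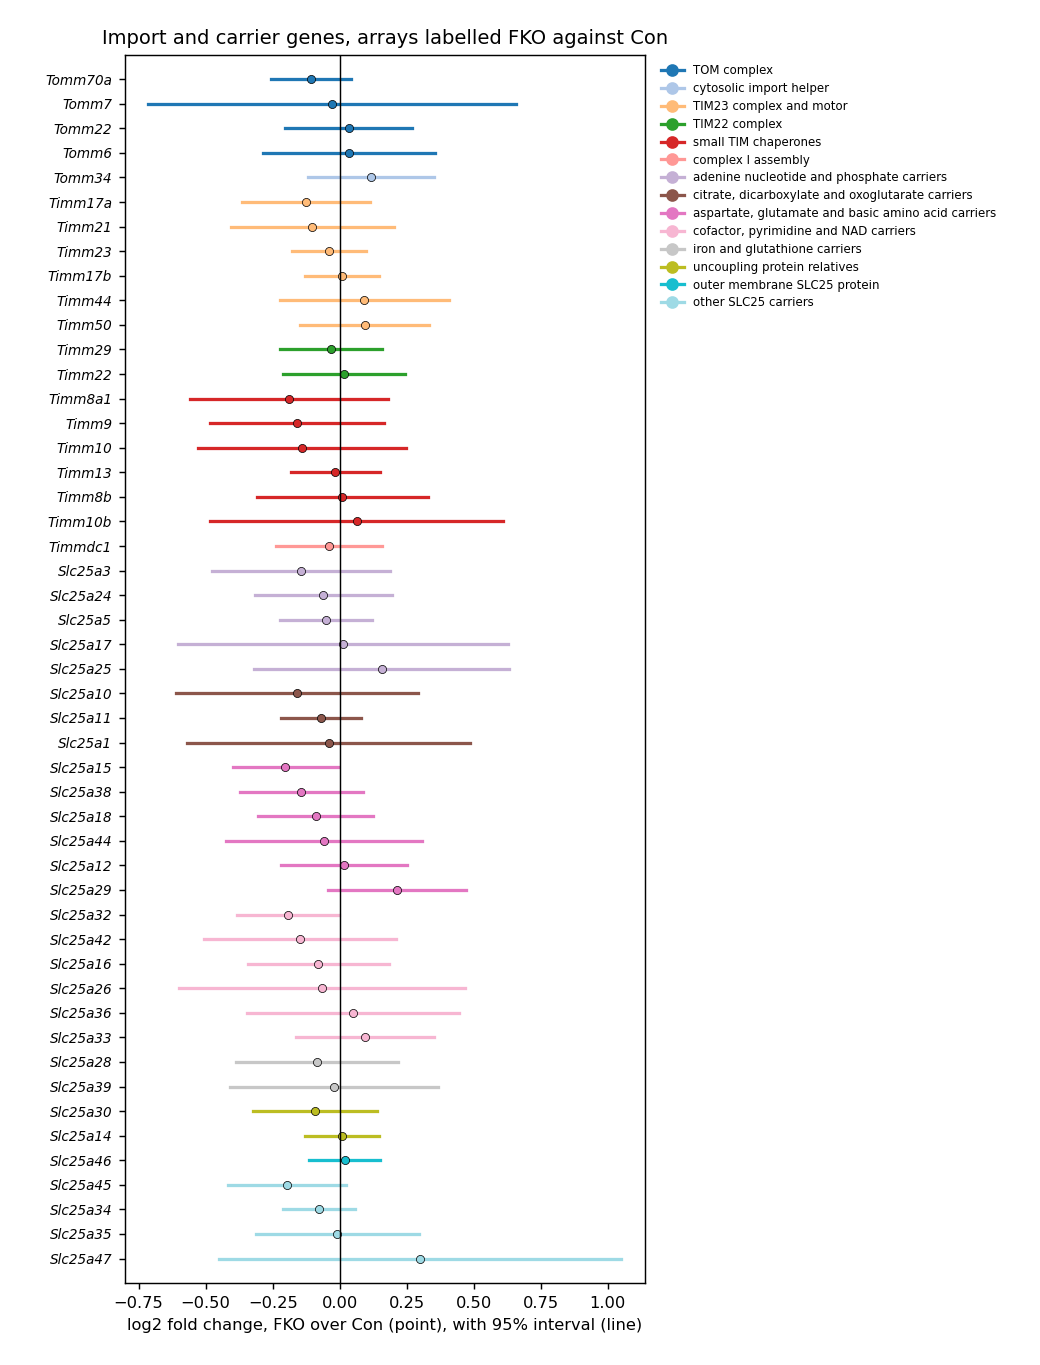
Log2 fold change of the 49 genes on the arrays labelled FKO (n = 3) over those labelled Con (n = 5), from limma, with 95% intervals as lines and genes ordered by role. The points lie between −0.20 (Slc25a15) and 0.30 (Slc25a47), and the intervals of Slc25a15 and Slc25a32 alone end just below 0.

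Slc25a32 carries folate and flavin adenine dinucleotide into the matrix. Its intensity was 136, 144 and 141 on FKO 1 to 3, against 152, 151, 152, 147 and 174 on Con 1 to 5. All 3 FKO arrays lay below all 5 Con arrays. The log2 fold change was −0.19 (standard error 0.083, 95% interval −0.38 to −0.0015, exact permutation p = 0.0179, the smallest that 56 splits can give, limma adjusted p = 1.00). The probe (ILMN_1235842) read less than 2 times the background limit on every array, where folds are compressed, and its other probe did not pass the level rule. Slc25a15, which exchanges ornithine for citrulline in the urea cycle, read 266, 247 and 279 on FKO 1 to 3, against 285, 323, 297, 313 and 272 on Con 1 to 5. FKO 1 and FKO 2 lay below every Con array and FKO 3 lay above Con 5 (log2 fold change −0.20 ± 0.085, exact permutation p = 0.0714, limma adjusted p = 1.00). A dimmer probe of the same gene, at 113 to 125, gave −0.096.

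In the TOM complex, 4 genes were tested, and none passed. Tomm22, the central receptor of the complex, was at 955, 1078 and 945 on FKO 1 to 3, against 1066, 952, 1094, 844 and 915 on Con 1 to 5. The groups overlapped throughout (log2 fold change 0.033 ± 0.10, exact permutation p = 0.75). Tomm70a, a receptor for carrier precursors (listed as Tomm70a also in RefSeq), was near the background limit, at 112, 120 and 114 on the FKO arrays, against 117 to 126 on the Con arrays (−0.11 ± 0.065, exact permutation p = 0.0893). The small subunit gene Tomm7 varied most of all 49 genes. It read 843, 636 and 660 on FKO 1 to 3, against 804, 1057, 562, 441 and 937 on Con 1 to 5, so that the highest and the lowest array were both labelled Con and differed 2.39-fold (log2 fold change −0.028 ± 0.30, exact permutation p = 0.964). Another small subunit, Tomm6, was lowest on the same array, at 121 on Con 4, and lay between 137 and 163 on the others. Tomm34, a cytosolic co-chaperone of precursors, had 290, 309 and 331 on the FKO arrays and 256 to 332 on the Con arrays (0.12 ± 0.10, exact permutation p = 0.321), and 0.12 ± 0.090 was the value with a dimmer probe.

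Genes of the TIM23 complex and its motor had log2 fold changes of −0.12 to 0.093. Timm17a, a subunit of the channel, read 2410, 3208 and 2970 on FKO 1 to 3, against 3419, 2867, 3174, 3024 and 3017 on Con 1 to 5. FKO 1 was the lowest array and FKO 2 the second highest (log2 fold change −0.12 ± 0.10, exact permutation p = 0.304). Timm50, the receptor for presequences, was at 1363, 1262 and 1241 on FKO arrays and at 1066 to 1444 on Con arrays, and Timm44, which tethers the import motor, at 349, 431 and 398, against 318 to 437. All 3 probes of Timm44 were lowest on Con 4. Timm21 had 4 tested probes with log2 fold changes of −0.11 to 0.0008. The channel gene Timm23 and Timm17b stayed at 115 to 124 and 113 to 121, close to the limit. In the TIM22 complex, which inserts carriers, Timm29 was among the steadiest genes, at 412, 418 and 412 on FKO 1 to 3, against 407, 443, 455, 372 and 443 on Con 1 to 5 (−0.033 ± 0.084, exact permutation p = 0.696). Timm22, the channel itself, was at 99.6 to 121 and passed the limit on 7 arrays. Timmdc1, an assembly factor of respiratory complex I that shares the prefix, lay between 120 and 139 (−0.040 ± 0.087, exact permutation p = 0.643).

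None of the 6 small TIM chaperone genes was called, and their log2 fold changes lay between −0.19 and 0.063. Timm8b read 1769, 1745 and 1761 on FKO 1 to 3, against 1765, 2143, 1498, 1438 and 1998 on Con 1 to 5. The FKO arrays lay close together, near Con 1, with Con 3 and Con 4 below them and Con 2 and Con 5 above, and the log2 fold change was 0.0099 (standard error 0.14, exact permutation p = 0.929). Timm10b, low and high on the same Con arrays, read 483, 451 and 562 on FKO 1 to 3, against 473, 634, 377, 348 and 634 on Con 1 to 5 (0.063 ± 0.24, exact permutation p = 0.839). Timm10 was at 254, 298 and 341 on the FKO arrays, against 289, 357, 284, 289 and 409 on the Con arrays (−0.14 ± 0.17, exact permutation p = 0.464). Timm8a1, whose human counterpart is mutated in deafness-dystonia syndrome, read 531, 724 and 835 on FKO 1 to 3, against 788, 820, 673, 717 and 893 on Con 1 to 5. Its lowest array was FKO 1 and its highest Con 5 (−0.19 ± 0.16, exact permutation p = 0.375). Timm9 was lowest on FKO 1 and Con 4, at 1301 and 1289, and highest on Con 3, at 1919. Con 4 was the lowest array with all 3 probes of Timm10b and both of Timm8b. As a set, the median deviation of the 6 small TIM genes from their own mean over 8 arrays was −0.20, −0.018 and 0.11 on FKO 1 to 3, against −0.011, 0.19, −0.15, −0.21 and 0.24 on Con 1 to 5 (log2 scale). Other small sets spread as widely: the 4 genes of the TOM complex ranged from −0.31 to 0.16 and the 3 carriers of citrate, dicarboxylates and oxoglutarate from −0.46 to 0.26, as the plot of median deviations shows.

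**Figure D2:**
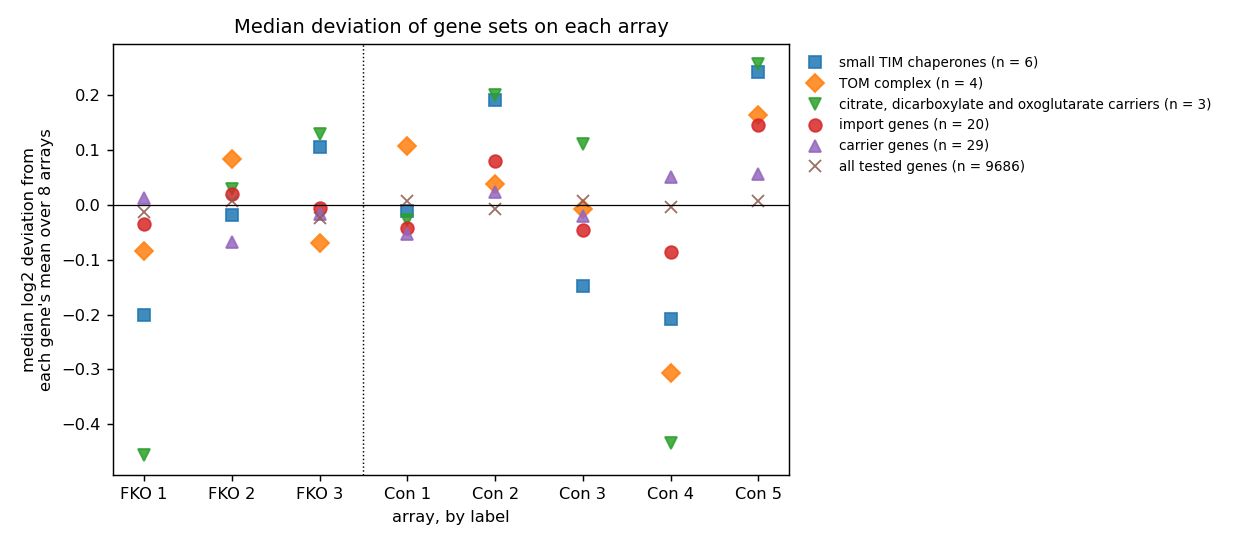
Median log2 deviation from each gene's own mean over the 8 arrays, for the small TIM chaperones, the TOM complex, the carriers of citrate, dicarboxylates and oxoglutarate, all import genes, all carrier genes and all genes tested (held near 0 by the quantile normalization), with the FKO arrays left of the dotted line and the Con arrays right of it. The small TIM genes range from −0.21 on Con 4 to 0.24 on Con 5, and the citrate, dicarboxylate and oxoglutarate carriers from −0.46 on FKO 1 to 0.26 on Con 5.

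The promoters of 2 small TIM genes and of 2 carrier genes described below are shown. Timm8b had the brightest small TIM probe, and the other 3 genes were among the 8 bright genes widest in range over the arrays. The rest of these 8, Tomm7, Slc25a26, Timm10b, Timm8a1 and Slc25a10, are not shown. None of them was among the genes found with a motif sought here, so the promoters shown do not stand for the widest genes. Each sequence is the 250 bases before the start of the gene, on its own strand, from RefSeq with GRCm38.p6 coordinates. It lies at chr9:50603651-50603900 (+) for Timm8b, chr2:84826771-84827020 (+) for Timm10, chr15:81360766-81361015 (−) for Slc25a17 and chr16:17928220-17928469 (−) for Slc25a1. Capitals mark the core of the GABP site (CCGGAAG or its reverse complement CTTCCGG), the site of the oestrogen-related receptors (TCAAGGTCA, on either strand) and the CCAAT box (CCAAT or ATTGG). GABP and these receptors are known to bind genes of mitochondria.
Timm8b: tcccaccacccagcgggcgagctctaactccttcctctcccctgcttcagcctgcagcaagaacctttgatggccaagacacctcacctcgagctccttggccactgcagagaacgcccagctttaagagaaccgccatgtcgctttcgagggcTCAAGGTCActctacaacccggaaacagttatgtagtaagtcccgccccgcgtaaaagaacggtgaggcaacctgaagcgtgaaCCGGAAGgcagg
Timm10: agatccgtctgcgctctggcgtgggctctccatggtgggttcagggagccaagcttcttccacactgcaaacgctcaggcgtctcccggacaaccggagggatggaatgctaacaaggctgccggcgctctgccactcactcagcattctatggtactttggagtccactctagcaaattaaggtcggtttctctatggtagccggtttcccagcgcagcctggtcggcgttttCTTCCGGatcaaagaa
Slc25a17: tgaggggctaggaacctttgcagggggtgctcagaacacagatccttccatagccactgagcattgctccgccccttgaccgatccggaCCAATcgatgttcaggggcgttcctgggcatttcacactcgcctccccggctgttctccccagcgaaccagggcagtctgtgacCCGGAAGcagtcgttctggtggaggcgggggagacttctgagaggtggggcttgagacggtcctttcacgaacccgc
Slc25a1: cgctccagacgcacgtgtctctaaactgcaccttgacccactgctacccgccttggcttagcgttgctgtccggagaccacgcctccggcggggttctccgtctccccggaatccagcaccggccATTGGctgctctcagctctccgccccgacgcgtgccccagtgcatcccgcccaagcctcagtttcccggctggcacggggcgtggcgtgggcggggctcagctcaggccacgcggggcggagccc

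The GABP core began 12 bases before the start in Timm8b, 16 in Timm10 and 77 in Slc25a17. Over the 42 genes matched in the promoter table, 12 of 49 such windows (24.5%) held the core, against 6.91% of all 32851 windows and 12.3% of the 10123 windows of genes tested here. The receptor site was found in 1 window (Timm8b, 96 bases before the start), against 0.387% of all windows and 0.247% of those of tested genes. CCAAT boxes stood in 38.8% of the windows, against 33.8% of all and 35.1% of those of tested genes. The palindromic NRF1 site stood in 0 of 49, against 0.782% of all and 1.45% of those of tested genes. A match describes letters in these windows only, and the share among the 49 was not tested.

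Among carriers of citrate and dicarboxylates, the same arrays were low for a pair of genes. Slc25a1, which exports citrate, read 1046, 1532 and 1726 on FKO 1 to 3, against 1456, 1634, 1478, 979 and 1820 on Con 1 to 5 (log2 fold change −0.041 ± 0.23, exact permutation p = 0.911). Slc25a10, which exchanges malate and succinate for phosphate, read 1081, 1495 and 1600 on FKO 1 to 3, against 1439, 1812, 1672, 1097 and 1745 on Con 1 to 5 (−0.16 ± 0.20, exact permutation p = 0.482). Both were lowest on FKO 1 and Con 4, 1 array of each label, and the remaining arrays lay at 1439 or above. A dimmer probe of Slc25a1 was also lowest on FKO 1 and Con 4, at 401 and 346, against 466 to 558 on the others. Slc25a11 exchanges oxoglutarate for malate. With its brightest probe it had the narrowest range of the 27 genes above 2 times the limit on all arrays. That probe read 481, 447 and 458 on FKO arrays and 458 to 509 on Con arrays (−0.070 ± 0.065, exact permutation p = 0.196). A dimmer probe of Slc25a11, at 305 to 410, was less steady and gave −0.21 ± 0.091 (exact permutation p = 0.0536). The dimmest, at 126 to 157, gave −0.14 ± 0.10.

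Among 5 carriers of adenine nucleotides and phosphate, 2 had log2 fold changes above 0 and 3 below, and none was called. Slc25a5, an exchanger of ADP and ATP, read 6361, 6941 and 6261 on FKO 1 to 3, against 6703, 6205, 7424, 6899 and 6575 on Con 1 to 5. Its highest array was 1.20 times its lowest (log2 fold change −0.051 ± 0.075, exact permutation p = 0.518). Slc25a3, which brings phosphate into the matrix, was at 1479, 1298 and 1491 on FKO arrays and at 1274 to 2024 on Con arrays, with Con 4 the highest. Slc25a25, a calcium-regulated carrier of ATP-Mg and phosphate, had 226, 235 and 352 on FKO 1 to 3, against 222, 275, 217, 210 and 298 on Con 1 to 5 (0.16 ± 0.21, exact permutation p = 0.464). Its highest value was on FKO 3, and the other FKO arrays lay among the Con arrays. Slc25a17, a carrier of coenzyme A and adenine nucleotides in the peroxisome rather than the mitochondrion, was at 681, 418 and 754 on FKO 1 to 3, against 440, 687, 465, 705 and 745 on Con 1 to 5 (0.013 ± 0.27, exact permutation p = 0.929). It was at 465 or below on FKO 2, Con 1 and Con 3, and at 681 or above on the others. Slc25a20, outside the rule, was lowest on the same arrays, at 698, 720 and 782, against 962 to 1229 on the others (0.085 ± 0.21, exact permutation p = 0.679).

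**Figure D3:**
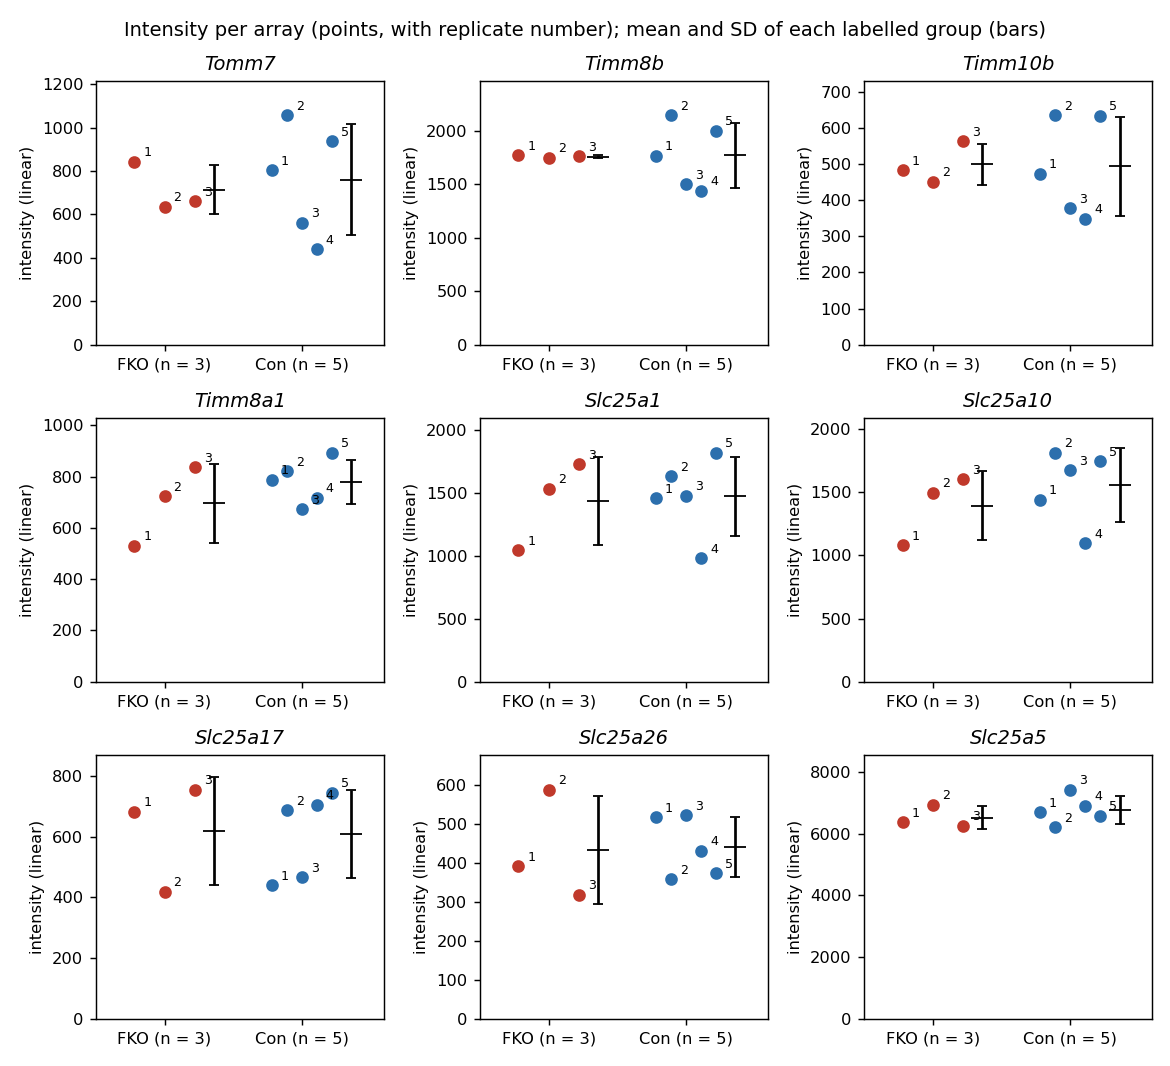
Intensity on each array (points with the replicate number) for 9 genes, with the arrays labelled FKO left of those labelled Con and the mean and SD of each group as bars; each axis starts at 0. Tomm7, Timm8b and Timm10b are lowest on Con 4, Slc25a1 and Slc25a10 on FKO 1 and Con 4, and Slc25a17 on FKO 2, Con 1 and Con 3.

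In the carriers of amino acids, 6 genes were tested. Slc25a38, which carries glycine for haem synthesis, read 638, 739 and 721 on FKO 1 to 3, against 794, 659, 867, 761 and 767 on Con 1 to 5 (log2 fold change −0.14 ± 0.10, exact permutation p = 0.232), and all 3 of its probes were lowest on FKO 1. Slc25a29, a carrier of basic amino acids, was at 115, 110 and 139 on FKO arrays and at 104 to 113 on Con arrays (0.21 ± 0.11, exact permutation p = 0.0536). FKO 1 and FKO 3, the arrays highest in the epididymis markers, lay above every Con array and FKO 2 among them. The value was 0.063 without FKO 3 and 0.013 without FKO 1, FKO 3 and Con 2, and the part of these markers was not tested. Slc25a44, a carrier of branched-chain amino acids, lay between 300 and 454. Slc25a12, which exchanges aspartate for glutamate, and the glutamate carrier Slc25a18 were dim, at 125 to 148 and 99.1 to 115.

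For the carriers of cofactors, iron and glutathione given here, the highest array differed from gene to gene. Slc25a26, which brings S-adenosylmethionine into the matrix, read 391, 587 and 318 on FKO 1 to 3, against 517, 358, 522, 430 and 374 on Con 1 to 5 (log2 fold change −0.066 ± 0.23, exact permutation p = 0.821). It was highest on FKO 2, Con 3 and Con 1, the arrays on which Slc25a17 was lowest. Slc25a16, a relative of coenzyme A carriers, had 691, 597 and 580 on FKO arrays and 604 to 799 on Con arrays (−0.080 ± 0.11, exact permutation p = 0.571). Slc25a28 (mitoferrin-2, an iron importer) was at 1628, 1640 and 1228 on FKO 1 to 3, against 1846, 1413, 1591, 1647 and 1407 on Con 1 to 5 (−0.085 ± 0.13, exact permutation p = 0.661). Slc25a39, needed for glutathione import, had 454, 381 and 517 on FKO arrays and 378 to 561 on Con arrays.

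Relatives of the uncoupling proteins and carriers of less known substrate were not called either. Slc25a30 was at 143, 124 and 137 on FKO arrays and at 130 to 150 on Con arrays (log2 fold change −0.091 ± 0.10, exact permutation p = 0.411), and Slc25a14 between 119 and 127. Slc25a35 read 221, 190 and 241 on the FKO arrays and 195 to 244 on the Con arrays (−0.0088 ± 0.13, exact permutation p = 0.893). The outer membrane protein Slc25a46 was at 102 to 109, above the limit on 5 arrays (0.018 ± 0.057, exact permutation p = 0.643). Slc25a47, known from liver, had the largest positive value, with 289, 144 and 239 on FKO 1 to 3, against 145, 214, 146, 249 and 175 on Con 1 to 5 (0.30 ± 0.33, exact permutation p = 0.482). It was lowest on FKO 2, Con 1 and Con 3, and its interval of −0.45 to 1.05 was the single one to pass a 2-fold change. FKO 1 and FKO 3, on which it was high together with Con 4, were also the highest in the epididymis markers given above, whose part in this value was not tested. Leaving out 1 array gave 0.037 (without FKO 1) to 0.67 (without FKO 2), and the value was −0.35 without FKO 1, FKO 3 and Con 2.

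**Figure D4:**
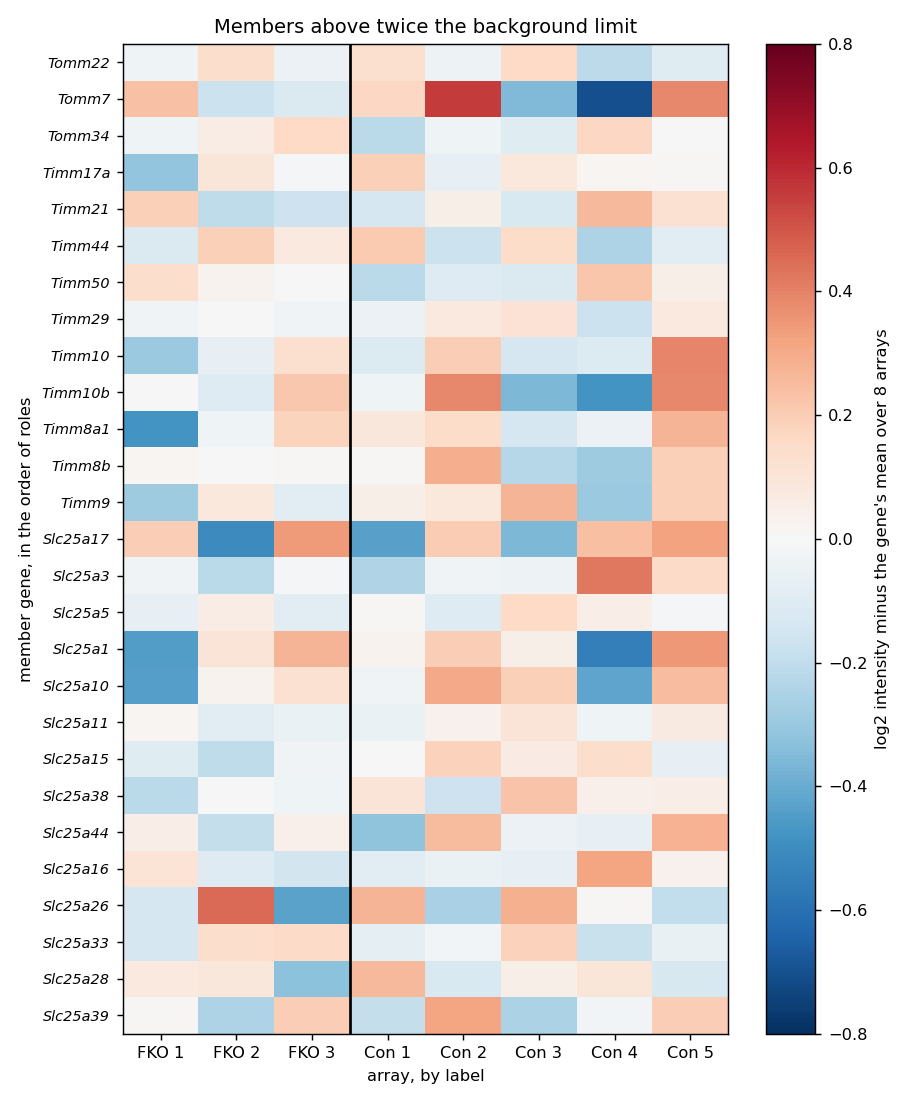
Log2 intensity of the deposited values minus each gene's mean over 8 arrays, for the 27 genes above 2 times the background limit on all arrays (rows, by role), with FKO arrays left of the black line and Con arrays right of it. Red is above and blue below the gene's mean; Tomm7 and Timm10b are bluest on Con 4, and no block of rows changes colour at the line between the labels.

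Over these 27 genes, Con 4 was the lowest array for 9 (33.3%, against 15.9% of 3885 tested genes of the same brightness). FKO 1 was the lowest for 5 (18.5%, against 14.6%) and Con 5 for 0 (0%, against 10.3%). The median difference between the highest and lowest array was 0.59 on the log2 scale, against 0.54 over the 3885 genes. FKO 2, Con 1 and Con 3, on which all probes of Ogt were lowest, were the lowest arrays for 3 genes (Slc25a17, Slc25a3 and Slc25a39). This was 11.1%, against 14.6% of the 3885. The same arrays were the highest for 4 (Slc25a26, Timm17a, Timm44 and Tomm22), 14.8%, against 18.7%. Those shares lay under the background, and others above it. FKO 1, Con 1 and Con 4 were the lowest arrays for 4 genes (Slc25a1, Slc25a10, Slc25a33 and Timm29; 14.8%, against 1.47%). FKO 3, Con 2 and Con 5 were the highest for 5 (Slc25a1, Slc25a39, Timm10, Timm10b and Timm8a1; 18.5%, against 8.62%), and Con 2, Con 3 and Con 5 for 4 (Slc25a10, Slc25a11, Timm29 and Timm9; 14.8%, against 1.08%). FKO 1, FKO 3 and Con 2 were the lowest for 3 genes (11.1%, against 7.08%). The sets of 3 arrays named here were picked from 56 possible ones with the shares known. No share was tested, and each rests on 9 genes or fewer. Of 13 genes with several tested probes, 6 had the same lowest array with all of them, and 5 had log2 fold changes of both signs.

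Other genes of import and transport, outside the prefixes, were not called either. Of 9 tested channel and carrier genes (15 symbols listed), 6 fold changes lay above 0 and 3 below, the median was 0.051 (log2 scale), and 0 were called. Of 17 tested genes for sorting, processing and the import motor (24 listed), 5 lay above 0 and 12 below, the median was −0.028, and 0 were called. At an unadjusted p under 0.05, 0 of the 9 and 2 of the 17 passed, both lower. Pmpcb, a subunit of the peptidase that removes presequences, read 195, 238 and 185 on FKO 1 to 3, against 250, 257, 268, 287 and 223 on Con 1 to 5 (−0.40 ± 0.13, limma adjusted p = 1.00). FKO 2 lay above Con 5, so that the groups overlapped. Hspd1, the chaperonin of the matrix, read 1289, 1574 and 1433, against 1475, 1742, 1817, 1600 and 1709 (−0.23 ± 0.095, limma adjusted p = 1.00), with FKO 2 above Con 1. Mtch2, an insertase of the outer membrane related to the carriers, was at 1909, 2188 and 1646 on FKO arrays and at 1801 to 2303 on Con arrays (−0.097 ± 0.12, exact permutation p = 0.482). Hspa9, the motor chaperone of the matrix, was at 5465, 5491 and 4687, against 4807 to 5767 (−0.047 ± 0.084, exact permutation p = 0.589). Romo1, a partner of the TIM23 complex, had the order of Tomm7 at both ends, with 815, 602 and 695 on FKO 1 to 3, against 664, 1411, 449, 441 and 1013 on Con 1 to 5. Pam16, a subunit of the motor, was likewise lowest on Con 4 and highest on Con 5, at 421 and 781. Romo1 and Pam16 were singled out after their values were seen.

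The 12 genes that did not meet the level rule were Slc25a13, Slc25a21, Slc25a22, Slc25a27, Slc25a31, Slc25a40, Slc25a41, Slc25a48, Slc25a53, Timm8a2, Tomm20 and Tomm40. Just outside the rule were Tomm20 and Tomm40, the receptor and the channel of the TOM complex, each above the limit on 2 arrays and at most at 109 and 111, and Slc25a22, above it on 1 array, at 113. Just inside were Slc25a34 (104 to 113, 4 arrays) and Slc25a46 (5 arrays). Of the 49, 44 were above the limit on all 8 arrays. In 17 genes every array lay below 2 times the limit, so that their small differences are compressed.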

How the data were processed

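Perigonadal fat RNA of 8 mice was read on Illumina beadchips. The deposited intensities had been quantile-normalized by the authors, by the methods, and are linear; the software, any background step and the bead summary are not given in the sources used here. A table of non-normalized signals was not used, since none of its 16 columns names a sample. Symbols came from the platform annotation (23978 of 25697 probes with 1 symbol, 0 with several, 1719 with none). The members and lists were chosen with earlier results of these data known.

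A normexp background correction with an offset of 50, quantile normalization and log2 were applied (limma 3.58.1 under R 4.3.3). A linear model by label was fitted with lmFit and eBayes to the 13925 probes above the background limit on 3 or more arrays. Its two-sided p-values were adjusted by Benjamini-Hochberg over all these probes, at a threshold of 0.05. Each gene was read with its brightest tested probe. Genes named were those at an unadjusted p under 0.05 or with groups that do not overlap, the brightest and the largest fold change of each role, the 8 widest and 4 narrowest ranges among bright genes, and Ucp1, Slc25a20, Hspa9 and Mtch2. Values of other members follow by role. Exact permutation tests took all 56 splits for single genes. The methods' t-test used equal variances, p under 0.01 and a fold above 1.5, on the corrected log2 values rather than the deposited ones. Printed intensities are the deposited ones; folds come from the corrected log2 values. The code was tested on simulated data. The number of arrays limits the precision, and the spread behind each p is that between these mice alone. Alternatives covered background, normalization, filter, variance model, array weights, the replicate number as a block, probe averaging and arrays left out. Figures were drawn with matplotlib 3.10.9.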

Additional observations from a re-analysis of the deposited data

Results flagged for a closer look

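Of 31 genes examined for a single Con array set apart, 1 passed the critical ratio of 0.71 for the gap to its neighbour over the whole range (0.815), and about 1 gene in 20 would by chance. This was Slc25a32, which read 136 to 144 on the FKO arrays, 174 on the array labelled Con 5 and 147 to 152 on the other Con arrays. Con 5 lies farthest from the FKO arrays, so leaving it out could not make the groups overlap and is no check of them.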

How the results depend on the processing

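Over 37 results and up to 19 settings each, no gene of the 49 was called under any alternative run, and the medians of all 49 genes, of the import genes and of the carriers moved by less than 1 SD of their array medians. Leaving out 1 array gave −0.056 to −0.015, −0.055 to 0.011 and −0.081 to −0.044 for these medians, and the other settings −0.052 to −0.021, −0.041 to 0.020 and −0.10 to −0.023. The genes whose groups do not overlap numbered 1 in the analysis given, 2 with the mean of all probes of a gene and 1 to 5 when 1 array was left out (5 without FKO 1 and 3 without FKO 2, where 6.36% and 15.9% of all genes did not overlap, and 2 without FKO 3, Con 1, Con 2 or Con 5). Without FKO 1, FKO 3 and Con 2, which carry epididymal transcripts, 1 FKO array was left, assumed to vary like the Con arrays, and 17 of 48 genes did not overlap, against 33.8% of all genes. Some fold changes turned sign, none of them called. Without those 3 arrays, log2 fold changes were −0.39 for Ogt, 0.025 for Timm17a, 0.0026 for Timm29, 0.010 for Slc25a5, 0.030 for Slc25a10, 0.023 for Slc25a28, −0.35 for Slc25a47, 0.40 for Slc25a26, 0.14 for Slc25a1, −0.49 for Slc25a17, −0.34 for Slc25a20, 0.032 for Hspa9 and 0.069 for Mtch2. Array weights gave −0.036 for Tomm22, 0.022 for Slc25a16, 0.057 for Slc25a35 and 0.071 for Tomm7, and the mean of all probes 0.017 for Slc25a1 and 7.8e-05 for Hspa9. With the replicate number as a block, values were −0.066 for Tomm22, −0.020 for Timm8b, 0.024 for Slc25a16, 0.049 for Slc25a35 and 0.0070 for Mtch2, and 0 genes were called. Same-numbered arrays did not deviate together (correlations −0.56, −0.70 and −0.41). The numbers thus gave no sign of a pairing of the mice, which these few correlations cannot exclude. Leaving out 1 array in turn gave ranges across 0 of −0.11 to 0.34 for Ogt, −0.34 to 0.0060 for Timm8a1, −0.28 to 0.018 for Slc25a10, −0.19 to 0.18 for Slc25a1, −0.17 to 0.29 for Slc25a17, −0.10 to 0.32 for Slc25a20, −0.030 to 0.078 for Tomm22, −0.078 to 0.014 for Timmdc1, −0.11 to 0.11 for Slc25a35, −0.22 to 0.12 for Tomm7, −0.081 to 0.29 for Slc25a25, −0.16 to 0.057 for Slc25a28, −0.0099 to 0.038 for Slc25a46, −0.34 to 0.15 for Slc25a26, −0.063 to 0.17 for Timm10b, −0.087 to 0.029 for Hspa9, −0.20 to 0.0090 for Mtch2 and −0.062 to 0.085 for Timm8b. Of all genes tested, 158 were called without FKO 2 (156 higher and 2 lower). Without Con 5, 15 were called (0 higher and 15 lower). Among these calls were 0 of the 49. Leaving out FKO 2 keeps FKO 1 and FKO 3, the arrays highest in the epididymis markers. The cause of the calls was not tested. The files name no slide, and a slide block could not be fitted. Signals near the background limit compress the folds of the 17 dim genes.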
